A study of Homo sapiens with 22 samples.

Results

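The neutrophil-attracting CXC chemokines CXCL1, CXCL2, CXCL3, CXCL5, CXCL6 and CXCL8 were followed in RNA-seq of human renal proximal tubule epithelial cells (RPTEC). They were defined by name, as the genes of the chromosome 4 chemokine cluster whose proteins carry the glutamate-leucine-arginine (ELR) motif, and the definition uses no measured value, although the set was picked with earlier results of these data known. Of the 6 genes listed, 5 had a row among the 36859 genes of the table and passed the filter on low values, which left 14585 genes. CXCL5 was not analysed here.

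The study inactivated SETD2, the enzyme that trimethylates lysine 36 of histone H3, in RPTEC immortalized with hTERT and kept under G418, and asked how its loss compares with TGF-β treatment and what its re-expression reverses. Each of 11 groups had 2 libraries (22 in all). In 2% serum these were untreated WT cells, WT cells given 10 ng/ml TGF-β for 72 h after 24 h in 2% serum, KO1 and KO2 (clones with SETD2 knocked out), and cells labelled KO2_Rescue. In regular media with 10% serum these were 2 clones re-expressing SETD2, Rescue1 and Rescue2, and 4 WT lines transduced with eGFP (the control vector), SOX2, OCT2 or PRRX1. The time given is 0 h for the groups in 2% serum other than TGF-β, and none is given for those in 10% serum. KO1 and KO2 are each a single clone made with an sgRNA against exon 3, so a trait of the clone and the loss of SETD2 cannot be told apart within either of them. The rescue clones were single colonies of KO cells carrying lentiviral FLAG-tagged SETD2 under blasticidin, and the sources used here do not name the KO clone they came from. The transduced WT cells were bulk populations selected with puromycin. No source says that the libraries of a group came from separate cultures, so p-values measure only the spread between these libraries, which may be technical.

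ELR-positive CXC chemokines are small secreted proteins that bind the G protein-coupled receptors CXCR1 and CXCR2 on neutrophils and draw these cells out of the blood. In epithelium their genes are switched on by interleukin-1, TNF and microbial products, through NF-κB bound close to the start site together with AP-1 or C/EBP proteins. Their mRNAs are usually short-lived because AU-rich elements in the 3′ UTR recruit decay factors, and in the injured kidney tubule cells are a known source of CXCL1 and CXCL8.

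The 6 genes lay within 359 kb of chromosome 4 (GRCh38), each with 4 exons. CXCL8 (73740569 to 73743716), CXCL6 (73836678 to 73838760) and CXCL1 (73869393 to 73871308) were on the plus strand, and CXCL5 (73995642 to 73998677), CXCL3 (74036589 to 74038689) and CXCL2 (74097040 to 74099195) on the minus strand. The 150 bases upstream of the start site of the 5 measured genes are given because they hold the element the family shares. They are RefSeq sequences (GRCh38.p14) read 5′ to 3′ on the strand of the gene, and capitals mark the κB core GGAATTTCC.
CXCL1: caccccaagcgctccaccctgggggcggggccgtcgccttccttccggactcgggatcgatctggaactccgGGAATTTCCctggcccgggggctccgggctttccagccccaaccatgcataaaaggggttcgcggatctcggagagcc
CXCL2: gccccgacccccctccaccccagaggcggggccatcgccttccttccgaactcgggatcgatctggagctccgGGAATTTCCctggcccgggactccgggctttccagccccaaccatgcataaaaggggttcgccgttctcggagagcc
CXCL3: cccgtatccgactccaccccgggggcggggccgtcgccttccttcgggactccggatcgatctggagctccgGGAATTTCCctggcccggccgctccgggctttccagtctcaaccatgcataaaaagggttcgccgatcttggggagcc
CXCL6: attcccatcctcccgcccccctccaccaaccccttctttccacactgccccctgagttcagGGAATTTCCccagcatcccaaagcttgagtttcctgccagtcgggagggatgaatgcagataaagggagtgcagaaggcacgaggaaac
CXCL8: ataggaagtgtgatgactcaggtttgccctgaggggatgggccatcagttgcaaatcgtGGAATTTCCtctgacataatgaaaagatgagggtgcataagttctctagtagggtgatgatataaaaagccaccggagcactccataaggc
These windows were chr4:73869243-73869392 for CXCL1, chr4:74099196-74099345 for CXCL2, chr4:74038690-74038839 for CXCL3, chr4:73836528-73836677 for CXCL6 and chr4:73740419-73740568 for CXCL8.

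All 6 genes, CXCL5 included, held the κB core between 91 and 69 bases before the start, against 0.413% of 35116 RefSeq promoters searched over the same 250 upstream bases on both strands. The longer GGGAATTTCC, which contains the core, was found in all of them except CXCL8 and in 0.142% of promoters. Only CXCL8 held the AP-1 letters TGANTCA (6.57% of promoters) and TATAAA (10.7%), whereas ATAAA, which lies inside TATAAA, was in all 6 (32.7%). Only CXCL2 held the C/EBP letters TTGCNNAA (9.05%), and the GC box GGGCGG was in CXCL1, CXCL3 and CXCL6 (42.6%). The promoters of CXCL1, CXCL2 and CXCL3 were alike around the core, as were their coding sequences, which were 90.7% to 94.4% identical. The 3′ UTRs were rich in ATTTA, the AU-rich pentamer, with 7.74 per kb in CXCL1, 13.91 in CXCL2, 10.36 in CXCL3, 5.35 in CXCL6 and 7.17 in CXCL8, against a median of 1.75 over 12810 genes.

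Because of this likeness the split of reads among close copies is uncertain. Of the 31-base stretches of the CXCL2 mRNA, 21.7% also occurred in another listed gene, as did 14.4% for CXCL1, 9.57% for CXCL3, 2.12% for CXCL6 and 0 for CXCL8. No stretch of 100 bases was shared by any 2 of the genes. CXCL2 was at a mean of 250 in KO1 beside 210761 for CXCL1, and whether reads of CXCL1 entered the count of CXCL2 was not tested.

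Values are normalized counts, whose totals per library were 11674491 to 16758645, from roughly 7700000 to 18500000 reads. SETD2 was 1852 and 2061 in WT, 1046 to 1130 over the 4 KO libraries and 9764 to 10445 over the 4 libraries of Rescue1 and Rescue2, but 820 and 834 in the libraries labelled KO2_Rescue, below KO2 (1050 and 1052). Those libraries go against their label on this measure, so they are called the libraries labelled KO2_Rescue throughout. Among defining leukocyte genes, MPO and FCGR3B were 0 in every library and CSF3R was at most 3.49. PTPRC was above 3 in 4 of the 22 libraries, at most 20.1, and at most 6.12 in the KO clones. The 10 leukocyte markers with a row of 12 listed summed to 116 to 155 in WT and 158 to 384 in the KO clones, mostly CD68. The 12 tubule markers summed to 20900 and 23100 in WT, 13600 in both KO1 libraries (the lowest of the series), 17900 and 18800 in KO2 and up to 32800 in Rescue1. KRT8 was the largest part of the sum in WT (mean of 16000) and was at 4260 in KO1, 10200 in KO2 and 24800 in Rescue1. PAX8 went the other way, from 3030 in WT to 6470 in KO1. LRP2 (at most 2.29) and VIL1 (at most 1.06), which define the proximal tubule brush border, were near 0. The 4 endothelial markers summed to 4.99 and 40.3 in WT and to 126 to 154 in the KO clones, carried by KDR (means of 113 in KO1 and 136 in KO2), while CDH5 was at 0 in both clones. The 6 fibroblast markers summed to 840 and 12400 in WT, to 223000 to 237000 in KO1 and to 46400 to 47800 with TGF-β, carried by DCN in KO1 (221606 and 234809) and by COL1A1 with TGF-β (45007 and 46598).

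Loss of SETD2 was the first comparison, and all 5 measured chemokines rose in both KO clones in the same serum as WT. CXCL1, a chemokine of the GRO family and the most abundant member, was at 5689 and 4502 in WT, at 209253 and 212269 in KO1 and at 73071 and 58364 in KO2. Both KO1 libraries stood far above both KO2 libraries, and all 4 stood above WT with no overlap. The rise was 41.6-fold in KO1 (log2 change 5.38, SE 0.11, adjusted p = 3.56e-14) and 12.9-fold in KO2 (3.69, adjusted p = 3.89e-12; limma throughout). Per kb of mRNA, CXCL1 ranked 125 and 157 among 33878 genes in the WT libraries, 9 and 13 in KO2 and 8 in both KO1 libraries. The 5 genes together took 0.0399% and 0.0462% of the WT libraries, 0.428% and 0.527% of KO2 and 1.33% and 1.34% of KO1.

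**Figure D1:**
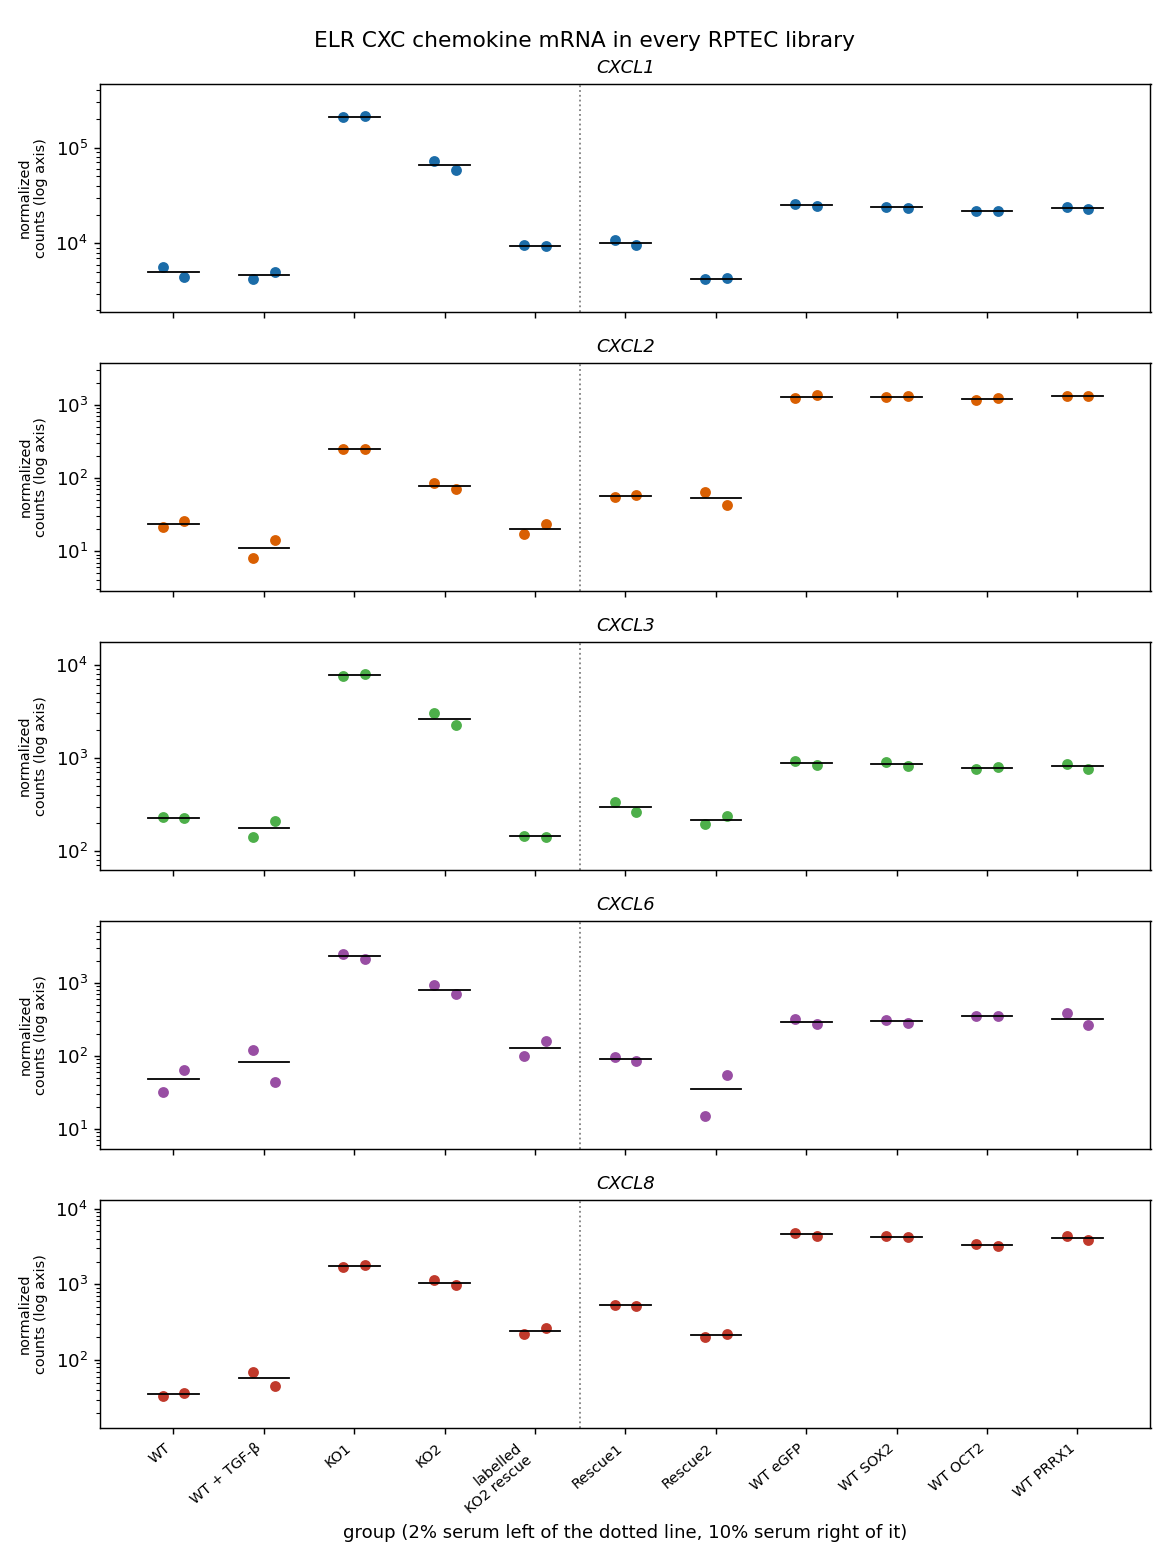
Normalized counts (log axis) of the 5 measured chemokines in each of the 22 libraries, with points for libraries, short lines for group means and a dotted line between groups in 2% and 10% serum. Both KO clones lie above WT for every gene, and CXCL2 and CXCL8 are highest in the 4 transduced WT groups.

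CXCL3, a close copy of CXCL1, was at 231 and 226 in WT, 7545 and 7859 in KO1, and 3024 and 2239 in KO2. CXCL6, which binds both receptors, was at 32.3 and 64.3 in WT, 2503 and 2075 in KO1, and 918 and 690 in KO2. In both genes the order was that of CXCL1, and no library of one group overlapped another. The rises were 33.5-fold and 11.3-fold for CXCL3 (log2 5.07 and 3.50, adjusted p = 1.93e-11 and 2.6e-09), and 48.9-fold and 17.1-fold for CXCL6 (5.61 and 4.09, adjusted p = 6.5e-07 and 2.57e-05), in KO1 and KO2 respectively.

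CXCL8, or interleukin-8, the best known attractant of human neutrophils, was at 33.9 and 36.2 in WT, 1669 and 1804 in KO1, and 1133 and 976 in KO2. CXCL2 was the least abundant member in the KO clones, at 21.4 and 26.1 in WT, 249 and 252 in KO1, and 86.2 and 71.3 in KO2. Here too the 3 groups did not overlap, which is a description, since the share of all genes without overlap was not counted. CXCL8 rose 48.2-fold in KO1 and 29.2-fold in KO2 (log2 5.59 and 4.87, adjusted p = 1.15e-12 and 8.94e-12), whereas CXCL2 rose 10.2-fold and 3.22-fold (3.35 and 1.69, adjusted p = 6.91e-08 and 0.000123).

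Called genes are those whose log2 change exceeded 1 in size and whose adjusted p was below 0.05. By this rule 5 of 5 members were higher in KO1, where 12% of all genes tested were called higher, and 5 of 5 in KO2, where 9.02% were. These comparisons, and those of TGF-β and eGFP, share the WT libraries. In bulk samples, a change in the number of cells expressing a gene and a change in its RNA per cell cannot be told apart. The fibroblast marker sums were highest in the KO clones, the endothelial sum was above WT there through KDR, and the tubule sum was lowest in KO1 through KRT8. Of the 10 tubule markers tested, 3 were called higher and 1 lower in KO1, beside 12% and 13.1% of all genes. In KO2 2 were called higher and 0 lower, beside 9.02% and 7.29%. The part of these marker changes in the result was not tested.

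The clones differed in size of response. In the direct comparison of KO1 with KO2, 3 of 5 members were higher in KO1, beside 2.48% of all genes, namely CXCL1 (log2 1.69, SE 0.11, adjusted p = 1.34e-07), CXCL2 (1.66, adjusted p = 0.000424) and CXCL3 (1.56, adjusted p = 4.55e-05). CXCL6 had a log2 difference of similar size that missed the threshold (1.52, 95% confidence interval 0.40 to 2.64, adjusted p = 0.0641), and CXCL8 differed by 0.72 (adjusted p = 0.00596), under the fold threshold. The ratio of CXCL3 to CXCL2 per kb was 31.4 to 36.4 over the 4 KO libraries. That of CXCL1 to CXCL8 was 165 and 175 in KO1 and 83.6 and 90.2 in KO2, with no overlap.

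**Figure D2:**
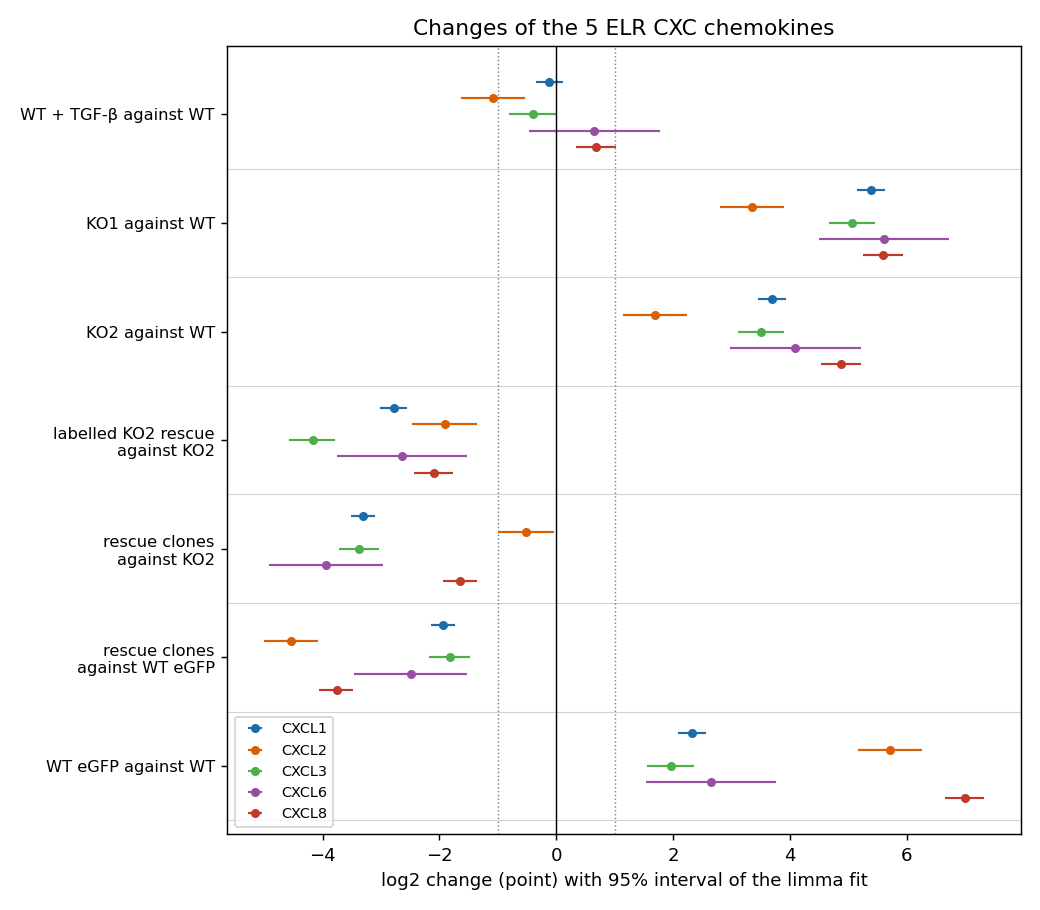
Log2 changes of the 5 chemokines (points) with 95% confidence intervals (lines) of the limma fit in 7 comparisons, with dotted lines at a change of 1 either way. All points lie above 1 in KO1, KO2 and eGFP against WT, where CXCL2 and CXCL8 reach 5.71 and 6.99 in eGFP, and CXCL2 at -0.52 is the point nearest 0 in the rescue clones against KO2.

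TGF-β treatment of WT cells raised no member past the threshold. The TGF-β libraries are given as 72 h and the untreated WT libraries as 0 h, so treatment and time cannot be told apart. CXCL1 was at 4289 and 5083 after TGF-β, overlapping WT (4502 and 5689). CXCL8 was at 69.9 and 45.9 and did not overlap WT, but its change stayed under the fold threshold (log2 0.68, adjusted p = 0.00724). CXCL2 was the 1 of 5 members called, and it was lower, at 8.0 and 14.0 against 21.4 and 26.1 (log2 change -1.08, SE 0.26, adjusted p = 0.00814), where 4.26% of all genes were called lower. This is the least secure call among the members, and it was lost without WT replicate 2 (adjusted p = 0.0708), without TGF-β replicate 1 (0.11), with a pseudocount of 5 (-0.86, under the fold threshold) and when the 8 libraries of transduced WT cells were left out (0.116). CXCL3 changed by -0.40 (adjusted p = 0.168), and CXCL6, at 119 and 43.6 in the TGF-β libraries, by 0.65 (adjusted p = 0.486).

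Set directly against each other, the KO clones (mean of both) were higher than TGF-β-treated WT cells in 5 of 5 members, beside 10.3% of all genes. The log2 differences were 4.65 for CXCL1, 3.60 for CXCL2, 4.69 for CXCL3, 4.20 for CXCL6 and 4.55 for CXCL8. This comparison does not use the WT libraries. The KO libraries are given as 0 h and the TGF-β libraries as 72 h, so time differs here too.

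Re-expression of SETD2 was compared next, against KO2, whose libraries are also used in the comparisons of KO1 and of the libraries labelled KO2_Rescue with KO2. Rescue1 and Rescue2 grew in 10% serum and KO2 in 2%, so serum and re-expression cannot be told apart here. The rescue clones also differ from KO2 in lentiviral transduction, blasticidin selection and clonal origin, and KO2 is not known to be their parent. CXCL1 was at 10787 and 9647 in Rescue1 and 4237 and 4362 in Rescue2, against 73071 and 58364 in KO2. CXCL3 was at 332, 261, 193 and 236 in the same 4 rescue libraries, and CXCL6 at 95.3, 85.6, 14.8 and 54.5. All of these lay below every KO2 library. Over both rescue clones CXCL1 fell by 3.30 on the log2 scale (95% confidence interval -3.51 to -3.10, adjusted p = 3.52e-12), CXCL3 by 3.37 (adjusted p = 7.39e-10) and CXCL6 by 3.94 (adjusted p = 8.17e-06).

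CXCL8 and CXCL2 fell less or were not called. CXCL8 was at 537 and 522 in Rescue1 and 204 and 222 in Rescue2, below KO2 in every library, with a log2 change of -1.64 (95% confidence interval -1.94 to -1.35, adjusted p = 2.87e-07). CXCL2 was at 54.6, 58.7, 64.3 and 42.6, also below KO2, but with a change of -0.52 (adjusted p = 0.0863). Thus 4 of 5 members were lower in the rescue clones than in KO2, beside 9.65% of all genes.

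Against WT, a comparison added after the values were seen and also crossed with serum, the rescue clones had CXCL8 9.35-fold higher (log2 3.23, adjusted p = 2.5e-10) and CXCL2 higher by 1.17 (adjusted p = 0.00108), so that 2 of 5 members were called higher beside 6.11% of all genes. CXCL1 (log2 0.39, adjusted p = 0.00771), CXCL3 (0.13, adjusted p = 0.614) and CXCL6 (0.16, adjusted p = 0.851) were not called. For CXCL8 the lowest rescue library (204) stood well above the higher WT library (36.2). The 2 rescue clones themselves differed, with CXCL1 higher in Rescue1 by 1.25 (adjusted p = 1.17e-05) and CXCL8 by 1.31 (adjusted p = 0.000238), which made 2 of 5 members higher beside 0.576% of all genes. Their SETD2 counts were 9764 to 10445, and no difference in SETD2 was called between them (log2 0.03).

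The libraries labelled KO2_Rescue grew in the same 2% serum as KO2 and were lower than KO2 in 5 of 5 members, beside 2.52% of all genes. CXCL1 was at 9621 and 9349 (log2 change against KO2 -2.78, adjusted p = 7.83e-10), CXCL3 at 145 and 142 (-4.17, adjusted p = 1.68e-09) and CXCL8 at 223 and 267 (-2.10, adjusted p = 4.45e-07). CXCL2 was at 17.4 and 23.3 (-1.91, adjusted p = 0.000156) and CXCL6 at 100 and 159 (-2.64, adjusted p = 0.00383), the latter lost without KO2_Rescue replicate 1 (adjusted p = 0.051). Neither group overlapped the other for any member, but the share of all genes without overlap was not counted. These lower levels stood beside a SETD2 count below that of KO2, so no direction of SETD2 is drawn from them. DCN, chosen after its values were seen, was at 35187 and 37572 in these libraries, between WT (289 and 477) and KO2 (94978 and 98373). Against WT, also added after the values were seen, CXCL8 was higher by 2.77 (adjusted p = 7.93e-09), the 1 member called higher beside 7.2% of all genes. CXCL3 had a log2 change of -0.67 (adjusted p = 0.016), under the fold threshold.

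WT cells transduced with a lentivirus in 10% serum had a different pattern of the same genes. CXCL8 was at 4817 and 4353 with eGFP and CXCL2 at 1236 and 1343, above every other library of the series that was not transduced WT. Against untransduced WT in 2% serum CXCL8 was 127-fold higher (log2 6.99, SE 0.16, adjusted p = 5.01e-13) and CXCL2 52.4-fold higher (5.71, adjusted p = 8.97e-10). CXCL1 (25908 and 24616), CXCL3 (935 and 847) and CXCL6 (314 and 271) were higher by 2.32, 1.96 and 2.65 on the log2 scale (adjusted p = 1.86e-09, 2.26e-06 and 0.00151). In all, 5 of 5 members were higher, beside 6.49% of all genes. Serum, transduction and puromycin selection cannot be told apart in this comparison.

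No member was called with the added factors, but hardly any gene was. Over the 8 transduced libraries CXCL1 ranged from 21576 to 25908 (median 23750), CXCL2 from 1176 to 1343 (1282), CXCL3 from 762 to 935 (834), CXCL6 from 260 to 380 (312) and CXCL8 from 3190 to 4817 (4238). For CXCL8 the means ran from 3284 with OCT2 to 4585 with eGFP. Both OCT2 libraries (3378 and 3190) lay below every other transduced library (3853 to 4817). The same order held for CXCL1, but not for CXCL2, CXCL3 or CXCL6. How many of all genes split likewise was not counted. By limma 0 of 5 members were called with SOX2, OCT2 or PRRX1 against eGFP, beside 0.0206%, 0.0343% and 0.0411% of all genes. With so few genes called, these counts do not set the members apart from all genes. CXCL8 with OCT2 was the 1 test of 15 whose unadjusted p fell below 0.05 (log2 -0.48, 95% confidence interval -0.82 to -0.14, limma adjusted p = 0.513). For CXCL1 the intervals of the differences from eGFP were -0.33 to 0.15 with SOX2, -0.46 to 0.01 with OCT2 and -0.34 to 0.14 with PRRX1. The transcript of the added factor was seen for PRRX1 (395 and 404, against 0 and 0 with eGFP) and for POU2F2, the gene of OCT2 (1251 and 1121, against 279 and 357), and SOX2 was not analysed here. These 3 comparisons share the eGFP libraries.

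In matched 10% serum, the rescue clones were lower than eGFP-transduced WT in 5 of 5 members, beside 6.66% of all genes. The log2 differences were -1.93 for CXCL1 (adjusted p = 1.72e-09), -4.54 for CXCL2 (adjusted p = 1.39e-09), -1.82 for CXCL3 (adjusted p = 8.21e-07), -2.49 for CXCL6 (adjusted p = 0.000685) and -3.76 for CXCL8 (adjusted p = 6.85e-11). CXCL2 and CXCL8 differed the most. Both kinds of cell were transduced, but they differ in clonal origin, antibiotic and vector as well as in SETD2.

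Across all 11 groups the members fell into a pair of patterns. CXCL1, CXCL3 and CXCL6 were highest in KO1, then KO2, then the 4 transduced groups. CXCL2 and CXCL8 were highest in the 4 transduced groups, with KO1 in place 5 and KO2 in place 6. For CXCL8 the remaining order was Rescue1, the libraries labelled KO2_Rescue, Rescue2, TGF-β and WT, with no overlap between neighbours, although KO2_Rescue (223 and 267) and Rescue2 (204 and 222) lay close. For CXCL1, Rescue1 (9647 and 10787) lay just above KO2_Rescue (9349 and 9621), and WT, TGF-β and Rescue2 at the bottom overlapped their neighbours. The same held for Rescue1, TGF-β, WT and Rescue2 in CXCL6, and for WT, Rescue2, TGF-β and KO2_Rescue in CXCL3. The groups of CXCL2 below KO2 paired as Rescue1 with Rescue2 and WT with KO2_Rescue, each overlapping, above TGF-β. The difference between KO and transduced WT was not tested, since serum differs too.

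Levels can be compared between genes only per kb of mRNA. On that scale CXCL1 made up 93.7% of the 5 members in WT, 94.8% in KO1, 93.8% in KO2 and 95.4% in the libraries labelled KO2_Rescue. It made up 92.5% in Rescue1 and 90.2% in Rescue2. In the 4 transduced groups its mean share was 81.1% to 82.0%. The share of CXCL8 was 0.468% in WT and 8.92% to 10.5% in the transduced groups. CXCL2 made up 4.37% to 4.84% there and 0.119% to 1.19% elsewhere.

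**Figure D3:**
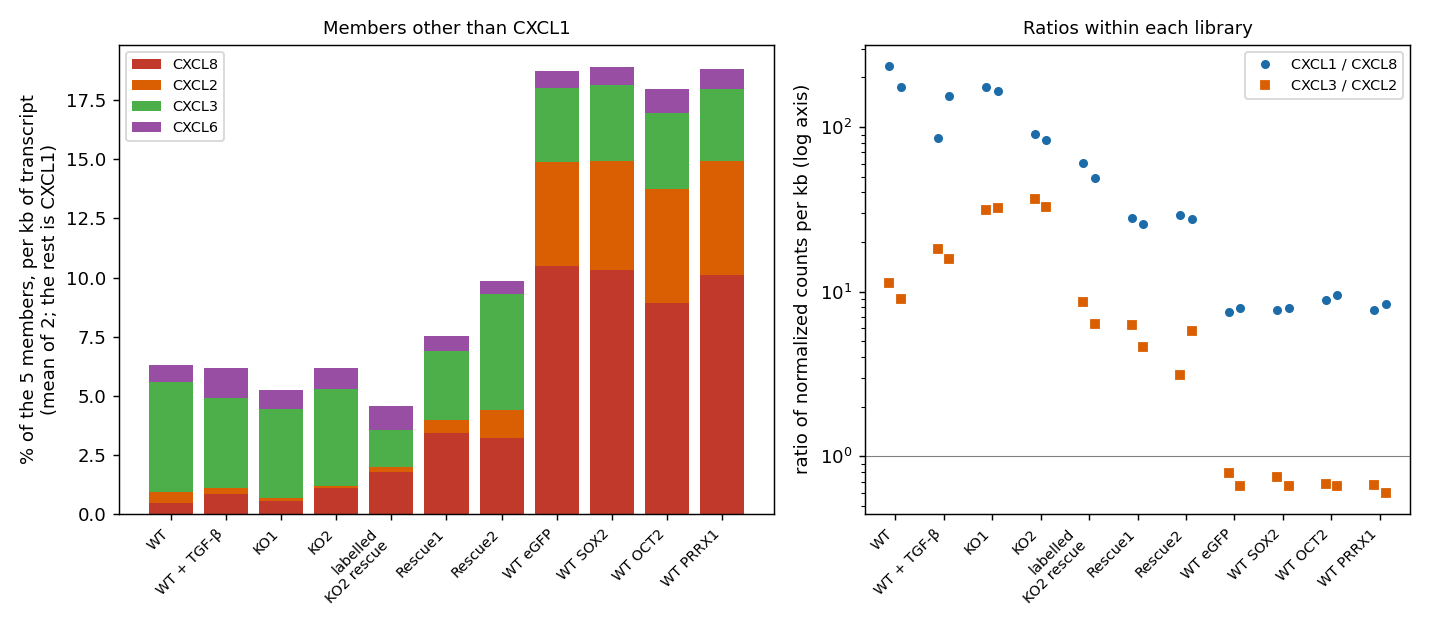
Left, share of CXCL8, CXCL2, CXCL3 and CXCL6 in the level per kb of mRNA of the 5 members (group means in percent, the rest being CXCL1), and right, the ratios CXCL1 to CXCL8 and CXCL3 to CXCL2 per kb in each library (log axis). CXCL8 makes up 8.92% to 10.5% in the transduced WT groups, and CXCL3 to CXCL2 lies below 1 there alone.

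The ratios showed the same in single libraries. CXCL1 per CXCL8, per kb, was 174 and 235 in WT, 48.9 and 60.4 in the libraries labelled KO2_Rescue, 25.9 to 29.0 in the 4 rescue libraries and 7.52 to 9.48 in the 8 transduced libraries. CXCL3 per CXCL2, per kb, was 9.01 and 11.2 in WT, 31.4 to 36.4 in the KO clones, 3.12 to 6.3 in the rescue clones and 0.599 to 0.784 in the transduced libraries. CXCL3 thus exceeded CXCL2 in every library except the 8 transduced ones, where CXCL2 exceeded CXCL3.

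Pearson correlations over the 11 group means of log2(normalized count + 1), in which groups share clones, media and vectors, describe this likeness. They were 0.981 for CXCL1 with CXCL6, 0.968 for CXCL1 with CXCL3, 0.931 for CXCL3 with CXCL6 and 0.932 for CXCL2 with CXCL8. The other pairs of members had 0.531 to 0.698. Over all genes tested, those most alike to CXCL1 were CACNA1S (0.992), VNN3P (0.988) and CXCL6, and to CXCL3 VNN3P (0.986), ACSL4 (0.983) and WTAP (0.981). Those most alike to CXCL6 were CXCL1, CACNA1S (0.977) and IQCD (0.976), to CXCL2 GOLGA8S (0.989), SIRPB1 (0.987) and WHAMMP3 (0.982), and to CXCL8 PIM1 (0.983), HIF1AN (0.973) and KLF9 (0.964).

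Inside the chemokine cluster and within 500 kb on either side of it lay 13 other protein-coding genes. Of these, 10 had a row and 5 passed the filter (ANKRD17, ALB, AFP, RASSF6 and MTHFD2L). In KO1 1 of the 5 was called higher, beside 12% of all genes, MTHFD2L, a mitochondrial folate enzyme (log2 1.01, adjusted p = 0.00633). In KO2, with TGF-β and with eGFP 0 of 5 were called by limma, where 1 of the 5 in each comparison had an unadjusted p under 0.05, with eGFP ANKRD17 (log2 0.71, adjusted p = 0.000211). ALB was the 1 of 5 called lower in the rescue clones than in KO2 (-3.46, adjusted p = 0.00247), beside 9.65% of all genes, from a mean of 14.9 in KO2. With 5 genes, these counts do not set the neighbours apart from all genes. PF4, a platelet chemokine inside the cluster, was at most 0.93, and PF4V1 and PPBP were not analysed here.

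**Figure D4:**
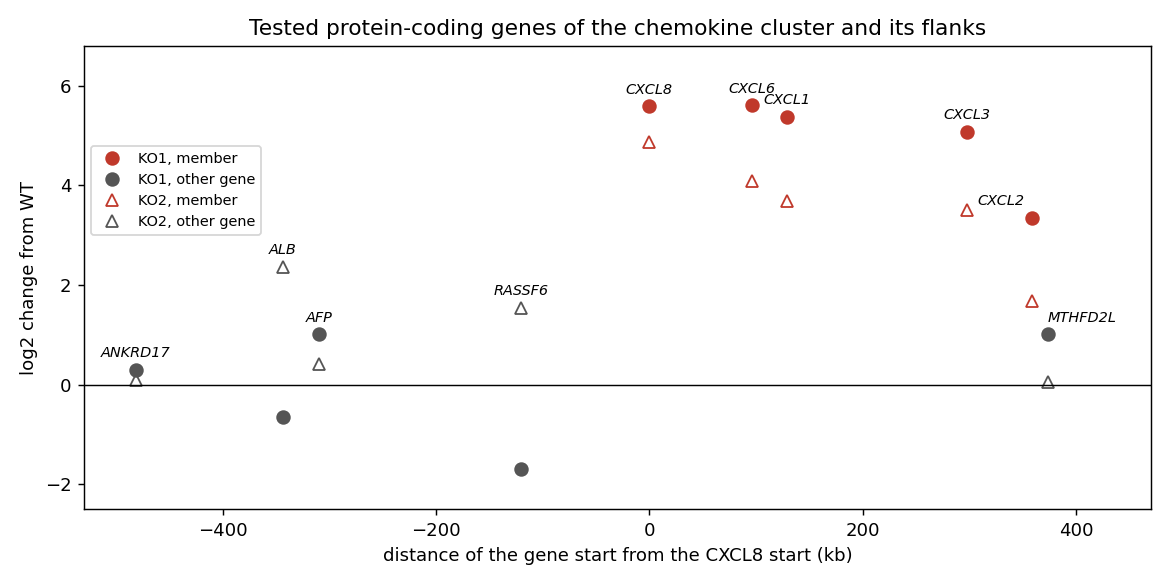
Log2 changes from WT in KO1 (filled circles) and KO2 (open triangles) of the tested protein-coding genes of the cluster and 500 kb on either side, by distance of the gene start from that of CXCL8 in kb. The 5 chemokines (red) lie between 1.69 and 5.61, and of the 5 other genes (grey) MTHFD2L in KO1, at 1.01, was called.

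Transcripts of the receptors were at or near 0. CXCR2 and ACKR1, the decoy receptor, were at 0 in all 22 libraries, and CXCR1 was at 1.16 in 1 library and 0 in the others. Of 8 other CXC chemokines listed, 3 passed the filter. CXCL12, which attracts CXCR4-bearing cells, rose from a mean of 40.9 ± 48.1 in WT (SD, n = 2) to 26100 ± 452 in KO1 and 21500 ± 1470 in KO2 (log2 10.06 and 9.78, adjusted p = 6.5e-09 and 1.67e-08). CXCL16, a membrane-bound chemokine, was lower in both, at means of 11.2 and 12.9 against 114 (adjusted p = 0.0152 and 0.0224). Its low level was not particular to the KO clones. TGF-β had a mean of 77.4, and the remaining groups had means from 5.55 (eGFP) to 40.1 (SOX2), with 6.74 in Rescue1 and 15.5 in Rescue2. CXCL14 was not called in either clone.

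Among 14 tested genes of inducing cytokines and their receptors (17 listed), 6 were higher and 2 lower in KO1 (median log2 change 1.36), beside 12% and 13.1% of all genes, and 6 higher and 1 lower in KO2 (median 0.30), beside 9.02% and 7.29%. IL1A, an alarmin that switches the chemokines on, rose from 37.8 ± 11.3 in WT to 6530 ± 538 in KO1 and 3250 ± 383 in KO2 (SD, n = 2; log2 7.43 and 6.42, adjusted p = 3.57e-13 and 2.92e-12). IL1B was at 0 and 5.5 in WT, 28069 and 29431 in KO1 and 2701 and 3949 in KO2. CSF3, which drives neutrophil production, was at 0 in both WT libraries, at 842 and 912 in KO1 and at 86.1 and 153 in KO2. IL6 rose by 2.69 and 1.76 on the log2 scale (adjusted p = 7.62e-08 and 1.14e-05). All 4 of these had their highest group mean in KO1, as CXCL1, CXCL3 and CXCL6 did. The rule that named them includes calls in KO1 against WT and in rescue against KO2. High means in KO1 and lower values in rescue were therefore favoured by that choice. In the rescue clones against KO2, 5 of the 14 were lower and 1 higher, beside 9.65% and 7.84%, with IL1A at -2.69 and IL6 at -1.36. Against WT, a comparison crossed with serum, 3 of the 14 were higher and 0 lower in the rescue clones, beside 891 and 864 of 14585 genes. IL1A (log2 3.73) and IL1B (6.09) were among those higher, and CSF3 (0.61) was not called. With TGF-β 3 were higher and 1 lower, beside 3.58% and 4.26% of all genes, and with eGFP 6 higher and 1 lower, beside 6.49% and 6.24%, IL1B reaching 204 to 311 over the 8 transduced libraries.

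Of 20 tested NF-κB, AP-1 and C/EBP genes (21 listed), 7 were higher and 0 lower in KO1, beside 12% and 13.1% of all genes, with a median log2 change of 0.55 over the 20 against 0 over all genes tested. In KO2 5 were higher and 2 lower (median 0.16), beside 9.02% and 7.29%. CEBPB, a C/EBP activator, rose by 3.08 and 2.04 (adjusted p = 5.53e-11 and 1.04e-08) and CEBPD, its relative, by 1.55 and 1.71. NFKBIA, the inhibitor of NF-κB that NF-κB itself induces, rose by 1.80 and 1.15 (adjusted p = 1.64e-10 and 4.69e-08), and NFKBIZ, a nuclear cofactor, by 1.14 and 1.23. All 4 were lower in the rescue clones than in KO2, with log2 changes of -1.44 for CEBPB, -1.53 for CEBPD, -1.09 for NFKBIA and -1.33 for NFKBIZ. The rule that named them includes calls in this comparison and in KO2 against WT, which share the KO2 libraries, so their fall was favoured by that choice. In rescue against KO2 3 of the 20 were higher, ATF3 (3.15) and JUN (1.21) among them, and 5 lower, beside 7.84% and 9.65% of all genes. With TGF-β 2 were higher and 1 lower, beside 3.58% and 4.26%, the latter CEBPD (-2.59, adjusted p = 1.03e-09).

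In eGFP-transduced WT 8 of the 20 were higher and 0 lower, beside 6.49% and 6.24% of all genes, including NFKBIA (1.64) and NFKBIZ (1.97). FOS, ATF3 and JUN, AP-1 family genes chosen after their values were seen, stood apart in these cells. FOS was at 1464 to 2215 in the 8 transduced libraries and at 0 to 22.3 in the other 14. ATF3 was at 1615 to 3182 against 30.2 to 713, and JUN at 7116 to 9729 against 2027 to 5362. None of the 3 overlapped between the transduced WT libraries and the rest, and how many of all genes split likewise was not counted. FOSL1, another AP-1 gene of the list, also chosen after its values were seen, did not split so. Its group means were 1360 to 1540 in transduced WT and 468 (KO2) to 2060 (Rescue2) elsewhere. CXCL2 and CXCL8 were also highest in the transduced libraries, and the part of the AP-1 genes in their levels was not tested.

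Among 6 tested genes of AU-rich mRNA decay (9 listed), 2 were higher and 1 lower in KO1 (beside 12% and 13.1% of all genes), 1 higher in KO2 (9.02%), 1 higher with TGF-β (3.58%) and 2 higher with eGFP (6.49%). With 6 genes these counts do not set the list apart. ZFP36L1, which targets AU-rich mRNAs for decay, was higher in KO1 (log2 1.44, adjusted p = 1.4e-11) and had a change of 0.88 in KO2. ZC3H12A, an RNase that degrades inflammatory mRNAs, was higher in KO1, KO2 and with TGF-β (1.41, 1.11 and 1.11, adjusted p = 0.000365, 0.00353 and 0.00638). HNRNPD, or AUF1, was lower in KO1 (-1.07, adjusted p = 2.54e-08) and had a change of -0.65 in KO2. In the rescue clones against KO2 ZFP36L1 had a change of -0.74 (adjusted p = 8.72e-09, under the fold threshold).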

How the data were processed

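RNA was measured in 22 libraries of RPTEC (TruSeq Stranded mRNA kit). Per the submitters' processing notes and the methods, the authors quantified transcripts with Salmon 1.9.0 with the cDNA set of Ensembl 94 (GRCh38, hg38) and used DESeq2 1.26.0. The values the authors deposited were on a log2 scale, with 11.32 as the lowest value of every library and 21.28 as the highest, and the transformation is not given in the sources used here. The plan allowed for this: the values were read as variance-stabilized from their shape and inverted to normalized counts. This inversion was not checked against the authors' counts, and a wrong form would alter low values most. Whole reads could not be recovered (14.9% to 28.1% of low values fell within 0.05 of a multiple of the step), so read numbers are approximate and no counting interval is given.

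GENCODE release 44 gave symbols for 33878 genes. limma 3.58.1 (R 4.3.3, version 1.17.8 of data.table), with a trend of variance on level, was fitted to log2(normalized count + 1) over 22 libraries, with a mean per group, on the 14585 genes whose normalized count reached 10 in 2 or more libraries. Fold changes are on that scale and understate those of low genes. P-values were adjusted over those genes by the Benjamini-Hochberg method. The procedure was tested on simulated data. Python 3.11.15, numpy 2.4.6, pandas 2.3.3, Biopython 1.88 and matplotlib 3.10.9 were used otherwise. Members and gene lists were chosen with earlier results of these data known. All 6 members were named, and of each list at most 4 genes called in KO1, KO2 or TGF-β against WT or in rescue against KO2, by adjusted p, or at the floor. Other names were chosen after seeing values and are marked so, apart from lists and neighbours accounted for in full. Comparisons of rescue and KO2_Rescue with WT, and the fits leaving out the KO2_Rescue or transduced libraries, were added after seeing the data. Alternatives tried were 0.5 or 5 as pseudocount, a filter at a mean of 50, no filter, quantile normalization, equal totals, only the groups compared, a replicate block, the deposited log2 values and each library left out. Same-numbered libraries did not deviate together (correlations of -0.08 to 0.05 over 55 pairs of groups), so the numbers were not taken as pairs.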

Additional observations from a re-analysis of the deposited data

Results flagged for a closer look

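The rise of the chemokines differed between the KO clones, as tested by the difference itself in the fit over all libraries. It was larger in KO1 by 1.69 on the log2 scale for CXCL1, 1.66 for CXCL2 and 1.56 for CXCL3, with both KO1 libraries above both KO2 libraries for each gene. The rescue clones differed from each other for CXCL1 (1.25 higher in Rescue1) and CXCL8 (1.31 higher in Rescue1), again with no overlap of libraries. The lack of overlap is a description, since the share of all genes without overlap was not counted. It was also favoured by the choice, because only members already called in these comparisons are named here. None of these 5 differences was called in a fit of the 2 clones alone (adjusted p = 0.0576, 0.0832 and 0.0653 for the KO clones, 0.0732 and 0.0775 for the rescue clones), which leaves 2 libraries a group to estimate the spread. For each pair of clones that fit called 1 of 14585 genes. Each clone was sampled from 1 colony, so the differences are between clones.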

How the results depend on the processing

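Counts of members called stayed equal to the value reported, or within 1.5 times of it, in 204 of 226 alternative fits. These include the fits of SOX2, OCT2 and PRRX1 against eGFP, where a count of 0 stayed 0. Hardly any gene was called in those fits, so they say little about how stable the counts are. On the deposited log2 values, whose offset shrinks changes of low genes, the counts were 0 for TGF-β, 3 for KO1, 1 for KO2 and 0 for rescue and KO2_Rescue against WT, 1 for KO1 against KO2, 2 for KO against TGF-β, 1 for rescue and 2 for KO2_Rescue against KO2, 0 for Rescue1 against Rescue2, 2 for rescue against eGFP and 2 for eGFP against WT. Of all 14585 genes 31, 178, 94, 33, 46, 23, 134, 62, 35, 1, 35 and 36 were called there, in the same order. The main fit called 3653 in KO1. The TGF-β count was 0 with a pseudocount of 5, and 0 when the transduced libraries were left out. With only the groups compared it was 0 for TGF-β, 0 for KO1 against KO2, 0 for Rescue1 against Rescue2 and 1 for rescue against WT, and CXCL2 in KO2 against WT (adjusted p = 0.0625) and in KO2_Rescue against KO2 (0.0804) and CXCL6 in eGFP against WT (0.0626) also lost their calls. Of 14585 genes that setting called 0 for TGF-β, 1 for KO1 against KO2, 1 for Rescue1 against Rescue2 and 1333 for rescue against WT. The member counts of 0 there therefore tell nothing particular to the chemokines. Leaving out 1 library gave counts of 0 to 1 for TGF-β, 1 to 2 for KO2_Rescue against WT (2 without either WT library), 4 to 5 for KO2_Rescue against KO2, and 2 to 3 for Rescue1 against Rescue2 (CXCL6 gained without Rescue2 replicate 2). Changes of sign came in values that were not called: CXCL2 with SOX2 was 0.01 under quantile normalization, and leaving out 1 library gave -0.28 to 0.05 for CXCL1 and -0.06 to 1.36 for CXCL6 with TGF-β, -0.33 to 0.64 for CXCL6 in rescue against WT, -0.18 to 0.40 for CXCL2 between rescue clones, -0.11 to 0.03 (CXCL3), -0.07 to 0.05 (CXCL2) and -0.09 to 0.12 (CXCL6) with SOX2, and -0.01 to 0.11 (CXCL2) and -0.17 to 0.38 (CXCL6) with PRRX1. The cause was not tested. Equal totals shifted the median gene by -0.39 (KO1) and -0.20 (KO2), with every member still called. With 2 libraries a group, changes near the threshold are uncertain.

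With the replicate number as a block, the counts of members called were 5 in KO1, 5 in KO2, 1 with TGF-β, 3 for KO1 against KO2, 4 for rescue against KO2 and 5 for eGFP against WT, and no count of the 15 comparisons changed. The numbers do not pair the libraries.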
